A study of Mus musculus with 30 samples.

Results

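Normal development of the mouse forelimb bud over 5 h was read from the solvent controls of a time course, as DMSO 6 h against DMSO 1 h. These are 6 of the 30 libraries, 3 for each time, and were chosen by their labels alone, across autosomal genes. The embryos were wild-type Swiss Albino. Pregnant females were injected intraperitoneally at E10.5 with DMSO, the solvent, and forelimb buds were dissected 1 h or 6 h later. The other groups of the series received DMSO for 12, 18 or 24 h, or Wnt-C59 (C59), a small molecule that blocks the secretion of WNT ligands, for 1 to 24 h. Per the methods each replicate was a pair of forelimb buds. Swiss Albino is an outbred stock, and embryos were not selected by sex. All of these embryos had been exposed to the injection and the solvent and uninjected embryos are not analysed here, so age, hours since injection and hour of the day cannot be told apart. Per the methods on embryo collection, the replicates of a condition and time drew on several litters, but which library came from which litter is not given in the sources used here.

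At this age the limb bud is a pouch of mesenchyme under ectoderm. SHH from the posterior mesenchyme, FGFs from the apical ectodermal ridge (AER) and the BMP antagonist GREM1 feed into one another to drive outgrowth, and WNTs from the ectoderm act with FGFs to keep distal progenitors proliferating and free of cartilage. The 5′ genes of the HoxD and HoxA clusters, the last to be switched on, mark the future hand plate, SOX9 marks the condensations that become cartilage, and muscle precursors migrate in from the somites and begin to express the MYOD1 family of myogenic factors.

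Totals ran from 18188636 to 30506759 counts per library. Levels are given as CPM, counts scaled to a common library size with TMM factors, and a positive log2 fold change means a higher level at 6 h. A gene is said to have risen or fallen where the Benjamini-Hochberg adjusted p of edgeR's quasi-likelihood test was below 0.05. The limb mesenchyme markers as a whole summed to 2018 to 2070.5 CPM at 1 h and 2092 to 2142 CPM at 6 h, and the forelimb gene *Tbx5* lay at 183, 188 and 189 CPM at 1 h and 222, 209 and 208 CPM at 6 h. *Pitx1*, which defines the hindlimb, lay between 0.417 and 1.29 CPM. In replicate 1 of both groups a slightly larger share of counts fell on protein-coding genes (97.8% and 98.1%) than in the other 4 libraries (95.7% to 96.2%). Genes of the Y chromosome, read from the FPKM table, summed to 7.66, 9.03 and 0.05 FPKM at 1 h. They summed to 0 in each library at 6 h, whereas *Xist* lay between 40.2 and 56.1 FPKM in all 6. DMSO 1 h replicates 1 and 2 thus held Y-linked RNA together with *Xist*, at 46.8 and 40.5 FPKM. Whether each of them came from 1 embryo was not tested. Since the groups differed in Y-linked RNA, the counts over all genes, and some of the list counts, are also given with it as a covariate. That fit uses all 30 libraries.

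Of 13107 protein-coding autosomal genes tested, 743 (5.67%) differed between 6 h and 1 h. Of these, 496 (3.78%) rose and 247 (1.88%) fell. Beyond 2-fold there were 92 genes (0.702%), 76 of them up (0.58%) and 16 down (0.122%). Most differences were small, with a median of 1.32-fold over the 743 genes and 651 of them within 2-fold. The libraries of the groups did not overlap for 741 of the 743, against 3301 (25.2%) of all genes tested. The median log2 fold change over all genes was 0.00. The count of 743 was 353 without DMSO 1 h replicate 1, 297 without DMSO 1 h replicate 2 and 328 without DMSO 6 h replicate 3, and the count of 92 was then 58, 56 and 56. With all 30 libraries and Y-linked expression as a covariate the counts were 665 and 114, and 505 of the 665 were among the 743. Of 168 named or listed genes that passed, 129 kept their call in that fit. Below, where leaving out 1 library ended a gene's call, the gene is given with the highest adjusted p over those 6 fits. The library named is the one behind that p, and leaving out others could end the call too. *Tbx5*, *Mymk*, *Eng*, *Mcm6*, *Pgam1*, *Rrm2* and *Gpat2* lost their call in each of the 6. Genes that are not protein coding were not part of these fits.

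The HoxD cluster, on chromosome 2, changed in a graded way along its length. The 4 genes at its 5′ end rose and 3 further towards the 3′ end fell, so that 7 of 10 genes passed. *Evx2*, the homeobox gene next to *Hoxd13*, lay at 2.82, 2.97 and 3.03 CPM at 1 h and 11.4, 12.6 and 7.79 CPM at 6 h. It rose 3.61-fold, which is 1.85 ± 0.18 (SE, edgeR adjusted p 0.00013) on the log2 scale. *Hoxd13*, required for digit formation, lay at 117, 101 and 99.4 CPM at 1 h and 189, 188 and 180.0 CPM at 6 h, and *Hoxd12* at 82.9, 75.7 and 73.4 CPM at 1 h and 117, 115 and 109.7 CPM at 6 h. Neither overlapped between the times, and their log2 fold changes were 0.80 ± 0.06 (SE, edgeR adjusted p 1.62e-05) and 0.56 ± 0.06 (SE, edgeR adjusted p 0.000142). *Hoxd11* rose by less, with 0.24 ± 0.05 (SE, edgeR adjusted p 0.0105), and *Hoxd10*, with -0.17 ± 0.06 (SE, edgeR adjusted p 0.0992), did not pass. *Hoxd9* and *Hoxd8*, which pattern more proximal segments, fell with -0.30 ± 0.06 (SE, edgeR adjusted p 0.0122) and -0.34 ± 0.06 (SE, edgeR adjusted p 0.0093). *Hoxd4* lay at 32, 37.2 and 25.9 CPM at 1 h and 17.5, 18.6 and 18.2 CPM at 6 h and fell with -0.81 ± 0.12 (SE, edgeR adjusted p 0.00213). *Hoxd3* (-0.53 ± 0.16) and *Hoxd1* (-0.41 ± 0.47) were lower but did not pass. Over the 10 genes, ordered from *Evx2* by the midpoint of each gene, Spearman's rho between position and log2 fold change was -0.95 (Pearson's r -0.89). The points are neighbouring genes of the same 6 libraries and not independent. On leaving out 1 library between 3 and 4 genes of the cluster rose and between 2 and 4 fell. With all 30 libraries sharing the spread 3 rose and 1 fell, and with the Y-linked covariate added 3 rose and 2 fell. *Hoxd11* and *Hoxd9* were not called in either of these fits, nor was *Hoxd8* in the first. *Hoxd11* (edgeR adjusted p 0.0512) and *Hoxd9* (0.0679) were not called without DMSO 1 h replicate 2.

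In the HoxA cluster, on chromosome 6, *Hoxa13* and the neighbouring *Evx1* rose while 2 of the other 10 genes fell. *Hoxa13*, which acts with *Hoxd13* in the hand plate, lay at 26.9, 24.5 and 23.8 CPM at 1 h and 48.4, 52.4 and 45.7 CPM at 6 h and rose 1.95-fold (0.96 ± 0.07 (SE, edgeR adjusted p 1.85e-05)). *Evx1*, added for its place beside the cluster after its values were seen, lay at 9.55, 8.26 and 7.91 CPM at 1 h and 16, 15.4 and 15.5 CPM at 6 h (0.87 ± 0.10 (SE, edgeR adjusted p 0.00048)). *Hoxa9* and *Hoxa7* fell with -0.27 ± 0.06 (SE, edgeR adjusted p 0.0214) and -0.34 ± 0.07 (SE, edgeR adjusted p 0.0146). *Hoxa11*, the gene of the forearm segment, was at -0.11 ± 0.06 and *Hoxa10* at 0.07 ± 0.05, and neither passed. The order was less regular than in HoxD, with a rho of -0.43 over 12 genes. Among genes that are not protein coding, *Hottip*, a long RNA at the 5′ end of HoxA, lay at 1.87, 1.86 and 1.2 CPM at 1 h and 4.12, 3.23 and 4.6 CPM at 6 h and rose with 1.29 ± 0.24 (SE, edgeR adjusted p 0.00966). *Evx1os*, antisense to *Evx1*, lay at 6.99, 7.05 and 4.99 CPM at 1 h and 13.8, 15.2 and 11.2 CPM at 6 h and rose with 1.09 ± 0.16 (SE, edgeR adjusted p 0.0026). *Haglr*, transcribed opposite *Hoxd1*, lay at 3.82, 3.66 and 2.54 CPM at 1 h and 1.75, 0.796 and 1.48 CPM at 6 h and fell with -1.30 ± 0.29 (SE, edgeR adjusted p 0.0236). Whether counting used the strand is not stated, so an antisense RNA and its partner cannot be told apart. *Hoxa9* (edgeR adjusted p 0.111) and *Hoxa7* (0.0696) were not called without DMSO 1 h replicate 2.

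**Figure D1:**
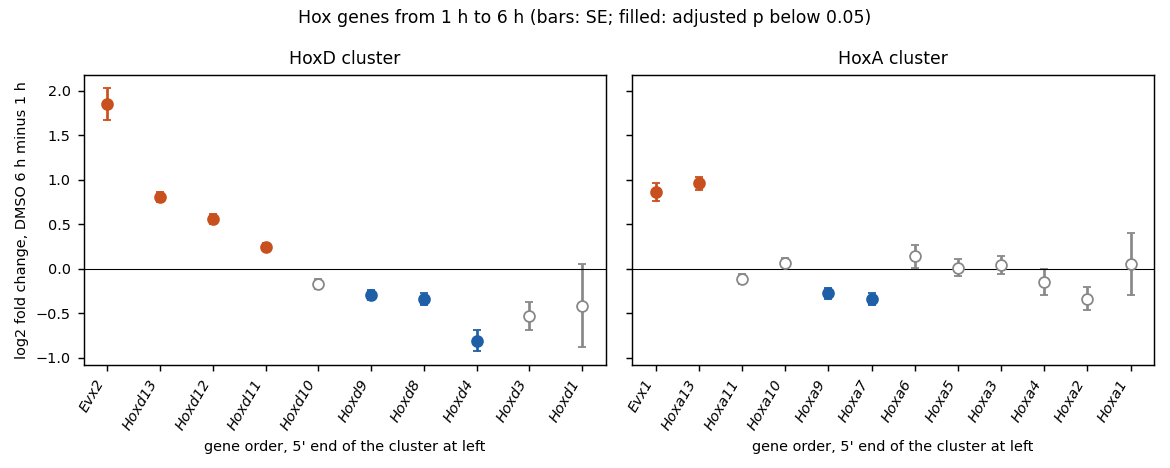
Log2 fold change (DMSO 6 h minus 1 h, bars SE, 3 libraries per time) of the HoxD genes with *Evx2* and of the HoxA genes with *Evx1*, ordered along each cluster from its 5′ end. Filled points passed at an adjusted p below 0.05, orange for higher and blue for lower. The values fall from 1.85 at *Evx2* to -0.81 at *Hoxd4* in HoxD.

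Factors that pattern the limb from proximal to distal and from anterior to posterior passed in larger shares than all genes tested (5.67%). The shares were 31.2% of 16 anterior-posterior and distal factors and 20% of 10 proximal factors. Of 16 anterior-posterior and distal factors 5 rose and none fell. *Osr2* and *Osr1*, odd-skipped factors of connective tissue and joint precursors, rose from 25.2 to 41.6 CPM (0.71 ± 0.08 (SE, edgeR adjusted p 0.00048)) and from 32.3 to 44.1 CPM (0.45 ± 0.06 (SE, edgeR adjusted p 0.00142)). *Sall1* rose by 0.34, *Hand2*, the posterior factor upstream of *Shh*, by 0.26, and *Tbx2* by 0.22 on the log2 scale. Among the proximal factors *Shox2*, needed for the humerus, rose (0.25 ± 0.05 (SE, edgeR adjusted p 0.00996)). It was not called with all 30 libraries sharing the spread, with or without the Y-linked covariate. The proximal markers *Meis1* and *Meis2* were lower but did not pass, at -0.17 ± 0.05 and -0.16 ± 0.05. Of 14 genes of retinoic acid signalling, which acts from the flank, *Rarg*, a receptor, rose (0.26 ± 0.05 (SE, edgeR adjusted p 0.00654)) and *Crabp1*, a binding protein, fell. *Crabp1* lay at 206, 206 and 208 CPM at 1 h and 152, 131 and 144 CPM at 6 h (-0.54 ± 0.05 (SE, edgeR adjusted p 0.00013)). *Dlx5*, with 0.93 ± 0.12 (SE, edgeR adjusted p 0.00123), was the only one of 8 ridge factors that passed. *Hand2* (edgeR adjusted p 0.0719) was not called without DMSO 1 h replicate 1, nor were *Sall1* (0.0574) and *Tbx2* (0.136) without DMSO 1 h replicate 2, nor was *Shox2* (0.0589) without DMSO 6 h replicate 3.

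*Shh*, *Grem1*, *Fgf8* and *Fgf4*, genes of the SHH, FGF and GREM1 feedback loop, did not pass. *Shh* lay at 13.6, 11.9 and 14.7 CPM at 1 h and 14.3, 13.7 and 14.9 CPM at 6 h, and the groups overlapped. Its log2 fold change was 0.08 ± 0.10 (SE, edgeR adjusted p 0.673). *Grem1* lay at 78.8, 71.8 and 67.8 CPM at 1 h and 69.1, 69.5 and 67.1 CPM at 6 h (-0.09 ± 0.06 (SE, edgeR adjusted p 0.437)), and *Fgf8*, the FGF expressed along the whole ridge, at 42, 38.7 and 33.9 CPM at 1 h and 35.7, 31 and 32.2 CPM at 6 h (-0.21 ± 0.08 (SE, edgeR adjusted p 0.162)). *Fgf4*, expressed in the posterior ridge, was lower at 2.95, 3.25 and 2.24 CPM at 1 h and 1.18, 1.04 and 2.22 CPM at 6 h, but did not pass (-0.95 ± 0.29 (SE, edgeR adjusted p 0.0814)). The SHH target *Ptch1* was at 0.21 ± 0.07 (SE, edgeR adjusted p 0.0863) and *Gli1* at -0.02 ± 0.07 (SE, edgeR adjusted p 0.936). Of 13 SHH pathway genes *Boc*, an SHH co-receptor, and *Hand2* rose and none fell. None of 12 FGF feedback genes passed in edgeR, DESeq2 or limma (1 at an unadjusted p below 0.05), with a median of -0.06, and *Dusp6*, the phosphatase induced by FGF, stood at -0.01 ± 0.05. Of 10 FGF ligands and receptors 3 rose and none fell. *Fgfr4*, found in muscle precursors, lay at 1.52, 2.37 and 2.51 CPM at 1 h and 4.41, 4.78 and 5.68 CPM at 6 h (1.19 ± 0.21 (SE, edgeR adjusted p 0.00672)). *Fgf9* rose by 0.89 ± 0.14 and *Fgfr3*, a receptor of cartilage precursors, by 0.76 ± 0.10.

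Of 14 BMP ligands, receptors and antagonists 3 rose and 1 fell. The antagonist *Nog*, expressed in forming cartilage, lay at 0.912, 1.53 and 0.825 CPM at 1 h and 2.9, 3.58 and 2.1 CPM at 6 h and rose 2.67-fold (1.42 ± 0.30 (SE, edgeR adjusted p 0.0166)). *Gdf5*, the joint ligand, lay at 1.91, 1.72 and 1.62 CPM at 1 h and 3.51, 2.84 and 3.35 CPM at 6 h and rose with 0.89 ± 0.20 (SE, edgeR adjusted p 0.0242). *Bmp2* lay at 7.56, 5.33 and 5.85 CPM at 1 h and 10.9, 10.8 and 10 CPM at 6 h, with 0.76 ± 0.13 (SE, edgeR adjusted p 0.00654). None of these overlapped between the times. *Bmp4*, with 0.17 ± 0.06 (SE, edgeR adjusted p 0.12), and *Bmp7*, with 0.02 ± 0.05 (SE, edgeR adjusted p 0.86), did not pass. *Sost*, a WNT and BMP antagonist, fell with -0.46 ± 0.12 (SE, edgeR adjusted p 0.0469). Of 8 genes that respond to BMP, *Id1* and *Id3* rose by 0.31 ± 0.06 and 0.24 ± 0.05 and none fell, while *Msx2* was at 0.23 ± 0.09 and did not pass. *Nog* (edgeR adjusted p 0.0782) was not called without DMSO 1 h replicate 1, nor were *Sost* (0.184) and *Id1* (0.0717) without DMSO 1 h replicate 2, nor were *Gdf5* (0.0846) and *Id3* (0.08) without DMSO 6 h replicate 3.

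All 13 WNT ligands tested had a positive log2 fold change, with a median of 0.32, and 3 passed. *Wnt5a*, the ligand of the distal mesenchyme that drives elongation, lay at 195, 186 and 211 CPM at 1 h and 243, 259 and 240.4 CPM at 6 h and rose with 0.32 ± 0.06 (SE, edgeR adjusted p 0.00585). *Wnt7b* and *Wnt11* rose by 0.45 ± 0.07 and 0.58 ± 0.11. The read-out genes of canonical WNT signalling did not follow in 1 direction, with 3 of 15 rising and 1 falling. *Axin2*, a direct target, lay at 122, 117 and 118 CPM at 1 h and 106, 112 and 100.5 CPM at 6 h and did not pass (-0.17 ± 0.05 (SE, edgeR adjusted p 0.0938)). *Lef1* (-0.06 ± 0.06) and *Sp5* (-0.09 ± 0.14) were near 0. *Tcf7* fell by 0.30 on the log2 scale (edgeR adjusted p 0.0156). The 3 that rose, *Wif1* (0.59 ± 0.08), *Dkk1* (0.43 ± 0.10) and *Nkd2* (0.27 ± 0.05), encode inhibitors of the pathway. Of 12 secreted modulators 4 rose and 1 fell. The sulfatase *Sulf1*, which acts on heparan sulfate, and the antagonists *Sfrp2* and *Frzb* rose by 0.51 ± 0.08, 0.42 ± 0.06 and 0.38 ± 0.06, and the agonist *Rspo3* by 0.41 ± 0.10. *Rspo4*, another agonist, lay at 56.9, 57.1 and 63.9 CPM at 1 h and 43, 34 and 35 CPM at 6 h and fell with -0.67 ± 0.08 (SE, edgeR adjusted p 0.000685). *Dkk1* (edgeR adjusted p 0.113) and *Rspo3* (0.114) were not called without DMSO 1 h replicate 2, nor were *Wnt11* (0.0625) and *Tcf7* (0.08) without DMSO 6 h replicate 3.

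Of 13 Notch pathway genes 3 rose and none fell, with a median of 0.31. The ligand *Jag1* lay at 35.3, 35.3 and 37.3 CPM at 1 h and 60.01, 66 and 55.5 CPM at 6 h, without overlap, and rose with 0.75 ± 0.07 (SE, edgeR adjusted p 0.00013). The receptor *Notch1* and the target *Hey1* rose by 0.33 ± 0.08 and 0.31 ± 0.06. *Notch1* (edgeR adjusted p 0.131) and *Hey1* (0.0538) were not called without DMSO 1 h replicate 2.

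Cartilage genes rose together. Of 9 cartilage matrix genes tested 7 rose and none fell, with a median log2 fold change of 0.56. *Matn4*, a matrilin of the cartilage matrix, was nearly absent at 1 h and lay at 0.695, 0.325 and 0.619 CPM at 1 h and 4.69, 7.22 and 5.06 CPM at 6 h. Its 10.1-fold rise was 3.33 ± 0.29 (SE, edgeR adjusted p 4.93e-05) on the log2 scale. *Cnmd*, which encodes chondromodulin, lay at 0.304, 0.974 and 0.481 CPM at 1 h and 2.73, 3.04 and 3.35 CPM at 6 h (2.38 ± 0.34 (SE, edgeR adjusted p 0.00159)). In both genes every 6 h library was higher than every 1 h library. Collagen IX, which coats the collagen fibrils of cartilage, moved in all 3 of its chains. *Col9a2* lay at 8.55, 12.6 and 8.87 CPM at 1 h and 27.1, 31.8 and 28 CPM at 6 h (1.54 ± 0.14 (SE, edgeR adjusted p 6.54e-05)), *Col9a3* rose by 1.00 ± 0.13, and *Col9a1*, the most highly counted of the 3, by 0.39 ± 0.05. *Col2a1*, the main collagen of cartilage, lay at 281, 328 and 316 CPM at 1 h and 429, 465 and 447 CPM at 6 h (0.53 ± 0.07 (SE, edgeR adjusted p 0.000845)), and *Col11a1* rose by 0.28 ± 0.06. *Col11a2*, with 0.56 ± 0.18 (SE, edgeR adjusted p 0.0876), and *Hapln1*, with -0.02 ± 0.06 (SE, edgeR adjusted p 0.884), did not pass. *Acan*, *Matn1*, *Comp* and *Ucma*, genes of more mature cartilage, had too few counts to test. With 1 library left out, 6 or 7 of the genes rose. *Col11a1* (edgeR adjusted p 0.099) was not called without DMSO 1 h replicate 2.

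Of 10 chondrogenic factors 3 rose and none fell, with a median log2 fold change of 0.33. *Sox9*, the master regulator of chondrogenesis, lay at 121, 152 and 155 CPM at 1 h and 219.9, 216 and 199 CPM at 6 h and rose 1.48-fold (0.56 ± 0.08 (SE, edgeR adjusted p 0.00235)). Its partner *Sox6* rose by 0.47 ± 0.10 and *Sox5* did not pass (0.19 ± 0.09 (SE, edgeR adjusted p 0.278)). *Foxc1* rose by 0.82 ± 0.13. *Runx2*, the factor of bone and hypertrophic cartilage, was at 0.23 ± 0.09 and did not pass. *Sox6* (edgeR adjusted p 0.0798) was not called without DMSO 6 h replicate 3.

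Genes of tendon, fibrous matrix and connective tissue also rose, 6 of 18 against 1 that fell. *Lum*, the proteoglycan lumican, lay at 5.91, 6.63 and 5.5 CPM at 1 h and 14.2, 11.7 and 13.2 CPM at 6 h and rose with 1.12 ± 0.12 (SE, edgeR adjusted p 0.000289). *Postn*, which encodes periostin, rose by 0.69 ± 0.14, and *Scx*, the tendon factor scleraxis, lay at 43.4, 46.6 and 44.1 CPM at 1 h and 65.1, 58 and 68 CPM at 6 h and rose with 0.51 ± 0.07 (SE, edgeR adjusted p 0.00124). *Col1a1*, *Col1a2* and *Col6a2* rose by 0.39 ± 0.09, 0.28 ± 0.05 and 0.39 ± 0.09, whereas *Col5a2* fell by 0.30 on the log2 scale (edgeR adjusted p 0.0446). Further genes, chosen after their values were seen, were *Smoc2*, a secreted matrix protein, at 8.12, 7.84 and 8.15 CPM at 1 h and 18.7, 17.8 and 17.6 CPM at 6 h (1.16 ± 0.09 (SE, edgeR adjusted p 1.77e-05)), and *Hic1*, a factor of mesenchymal progenitors, at 11.3, 11.8 and 13.1 CPM at 1 h and 23.7, 22.4 and 26.7 CPM at 6 h (1.00 ± 0.09 (SE, edgeR adjusted p 0.00011)). In the same way *Six2* and *Meox2*, homeobox factors of limb mesenchyme, rose by 0.92 ± 0.10 and 0.67 ± 0.06, and *Fgf18*, a ligand of skeletal tissue, by 1.49 ± 0.17. *Col8a1*, among the 10 largest increases, lay at 0.391, 0.557 and 0.413 CPM at 1 h and 2.37, 3.23 and 2.9 CPM at 6 h (2.63 ± 0.29 (SE, edgeR adjusted p 0.00033)). *Cxcl14*, a chemokine with one of the 5 smallest p-values, lay at 84.1, 73.1 and 76.5 CPM at 1 h and 160.5, 154 and 147 CPM at 6 h (0.98 ± 0.06 (SE, edgeR adjusted p 1.55e-06)). *Col1a1* (edgeR adjusted p 0.1) was not called without DMSO 1 h replicate 1, nor was *Col1a2* (0.0529) without DMSO 1 h replicate 2, nor were *Postn* (0.0651), *Col6a2* (0.111) and *Col5a2* (0.123) without DMSO 6 h replicate 3.

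Among muscle genes *Pax3* fell while *Myod1* rose. Of 16 myogenic regulators and sarcomere genes 5 rose and none fell, with a median of 0.45. *Myod1*, the determination factor, lay at 3.52, 3.01 and 4.02 CPM at 1 h and 13.3, 12.5 and 14.7 CPM at 6 h and rose 3.79-fold (1.92 ± 0.13 (SE, edgeR adjusted p 7.02e-06)). *Myf5*, which precedes it, rose less, with 0.48 ± 0.11 (SE, edgeR adjusted p 0.0253). *Myog*, the differentiation factor, lay at 2.82, 8.44 and 7.67 CPM at 1 h and 10.4, 11 and 10.3 CPM at 6 h and did not pass (0.73 ± 0.27 (SE, edgeR adjusted p 0.141)), its replicate 1 at 1 h being far below the other 2. *Mymk*, the fusion protein myomaker, stayed under 1 CPM but rose with 1.56 ± 0.39 (SE, edgeR adjusted p 0.0382), and *Cdh15* and *Tnnt1* rose by 0.75 ± 0.16 and 0.81 ± 0.19. Of 10 muscle progenitor genes 1 rose and 1 fell, with a median of 0.06. *Pax3*, the factor of migrating precursors, lay at 29.1, 27.2 and 29.8 CPM at 1 h and 21.9, 21 and 21.8 CPM at 6 h and fell with -0.42 ± 0.07 (SE, edgeR adjusted p 0.00382). *Pax7*, the factor of later progenitors, lay at 0.738, 0.974 and 0.997 CPM at 1 h and 1.88, 2.44 and 2.5 CPM at 6 h and rose with 1.31 ± 0.26 (SE, edgeR adjusted p 0.0133). *Lbx1*, another factor of migrating precursors, was lower but did not pass (-0.24 ± 0.06 (SE, edgeR adjusted p 0.0507)). On leaving out 1 library the 5 myogenic genes that rose became 1 without DMSO 1 h replicate 1, 2 without DMSO 1 h replicate 2, 3 without DMSO 1 h replicate 3 or DMSO 6 h replicate 1, and 2 without DMSO 6 h replicate 3. *Myf5* (edgeR adjusted p 0.106), *Mymk* (0.132), *Cdh15* (0.0729) and *Pax7* (0.0645) were not called without DMSO 1 h replicate 1, nor was *Tnnt1* (0.103) without DMSO 6 h replicate 3.

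Further muscle genes among those beyond 2-fold were chosen after their values were seen. *Rapsn*, which clusters acetylcholine receptors, lay at 0.0434, 0.0464 and 0.0344 CPM at 1 h and 0.571, 0.846 and 1.14 CPM at 6 h (4.17 ± 0.61 (SE, edgeR adjusted p 0.00203)). *Vgll2*, *Pitx3* and *Rbm24* rose by 1.56 ± 0.28, 1.56 ± 0.29 and 1.06 ± 0.16, and *Atp2a1*, the calcium pump of fast fibres, and *Synpo2l* by 1.21 ± 0.21 and 1.34 ± 0.24. In bulk tissue more cells of a lineage and more RNA per cell cannot be told apart, here as for cartilage. *Pitx3* (edgeR adjusted p 0.0541) was not called without DMSO 6 h replicate 3.

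**Figure D2:**
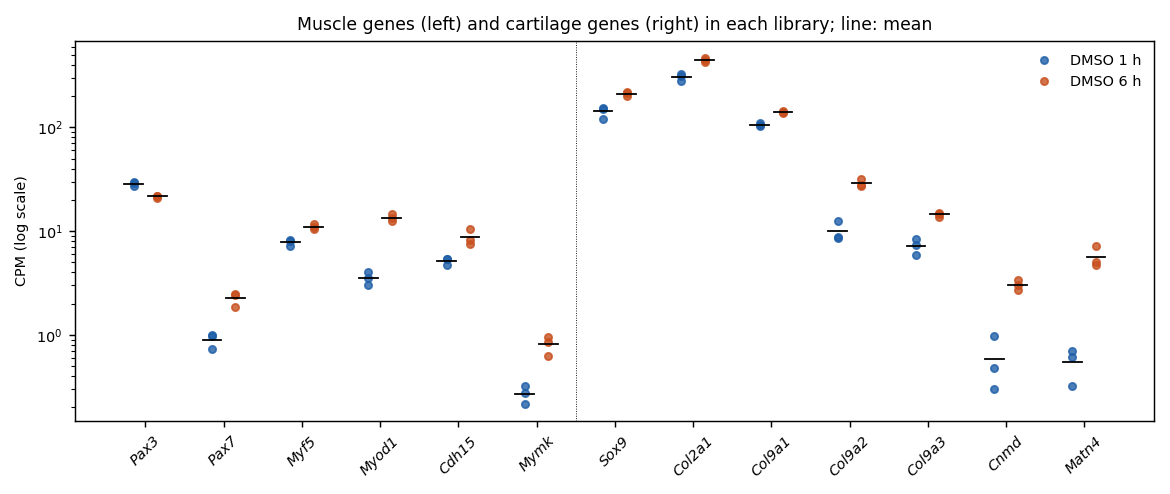
CPM on a log axis of 6 muscle genes (left) and 7 cartilage genes (right) in each of the 3 DMSO 1 h libraries (blue) and the 3 DMSO 6 h libraries (orange), with a line at each group's mean. *Pax3* falls while *Myod1* rises from between 3.01 and 4.02 to between 12.5 and 14.7 CPM, and *Matn4* shows the largest rise.

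Markers of other cell types are set beside these results, and their part in them was not tested. Schwann cell precursors and crest showed the highest median of any marker list, 0.69, with 3 of 5 tested genes rising, and the list summed to 38.5 to 46.3 CPM at 1 h and 57.2 to 61.2 CPM at 6 h. *Sox10*, which defines them, lay at 2.65, 2.64 and 2.24 CPM at 1 h and 5.3, 4.38 and 5.8 CPM at 6 h (1.04 ± 0.18 (SE, edgeR adjusted p 0.00483)), and the receptors *Erbb3* and *Ednrb* rose by 0.64 ± 0.11 and 0.69 ± 0.15. The myelin genes and *Fabp7* were not counted highly enough to test. Of 14 ectoderm markers the keratins *Krt14* (0.70 ± 0.12 (SE, edgeR adjusted p 0.00587)) and *Krt5* (0.40 ± 0.08 (SE, edgeR adjusted p 0.0103)) rose, with list sums of 325 to 379 and 359 to 404 CPM, and *Trp63*, the defining factor, did not pass (0.15 ± 0.07). Of 16 macrophage markers 1 rose (6.25%, against 5.67% of all genes tested), *Pf4* (0.62 ± 0.14). The macrophage list summed to 40.5 to 47.8 and 52.7 to 56.8 CPM. Of 16 endothelial markers 1 fell (6.25%, also near that share), *Eng* (-0.25 ± 0.07), with sums of 614 to 646 and 616 to 637 CPM. Of 8 limb mesenchyme markers *Tfap2b* (0.72 ± 0.06 (SE, edgeR adjusted p 4.62e-05)) and *Tbx5* (0.18 ± 0.05 (SE, edgeR adjusted p 0.0389)) rose, and *Prrx1* did not pass (0.06 ± 0.05). *Tbx5* (edgeR adjusted p 0.147) was not called without DMSO 1 h replicate 1, nor were *Krt5* (0.0645) and *Eng* (0.172) without DMSO 1 h replicate 2, nor were *Ednrb* (0.0754) and *Pf4* (0.105) without DMSO 6 h replicate 3.

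Of 6 markers of trunk flank and neural tube tested, *Tbx18* and *Pax1* rose by 0.37 ± 0.07 and 0.39 ± 0.08. The list summed to 158 to 174 CPM at 1 h and 204 to 223 CPM at 6 h. Of the neural tube factors in the list, *Olig2* and *Neurog2* had no count in any of the 6 libraries. *Sox1* had too few counts to test, and *Sox2* was tested and did not pass. Of the 2 hindlimb markers *Tbx4* lay at 9.03, 10.1 and 11 CPM at 1 h and 15.3, 12.8 and 15.3 CPM at 6 h and rose with 0.52 ± 0.11 (SE, edgeR adjusted p 0.017), and *Pitx1* did not pass (0.49 ± 0.44). *Pax1* (edgeR adjusted p 0.0977) was not called without DMSO 1 h replicate 2, nor was *Tbx4* (0.08) without DMSO 6 h replicate 3.

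Among genes of circulating red cells the adult beta globin *Hbb-bt* rose while the embryonic *Hbb-bh1* fell. Of 13 erythrocyte markers 2 rose and 1 fell, and 10 had a negative log2 fold change, with a median of -0.10. The sum of the markers ran from 4519.8 to 6050.2 CPM at 1 h and from 4244 to 4749 CPM at 6 h. The adult beta globin *Hbb-bt* lay at 4.78, 5.06 and 5.61 CPM at 1 h and 11.9, 11.2 and 11.9 CPM at 6 h and rose 2.25-fold (1.17 ± 0.12 (SE, edgeR adjusted p 0.00013)). *Hbb-bs*, its adult neighbour, rose with 0.59 ± 0.16 (SE, edgeR adjusted p 0.0468). The embryonic *Hbb-bh1* was far higher, at 1001, 986 and 1094 CPM at 1 h and 818, 757 and 694 CPM at 6 h, and fell with -0.45 ± 0.06 (SE, edgeR adjusted p 0.00139). *Hba-x*, the embryonic alpha globin, was at -0.31 ± 0.12 (SE, edgeR adjusted p 0.136) and did not pass, nor did the adult alpha globin *Hba-a1* (-0.17 ± 0.17 (SE, edgeR adjusted p 0.617)). With the Y-linked covariate 1 marker of the list rose and none fell, and *Hbb-bh1* was also not called with all 30 libraries sharing the spread or in limma. Adult beta globins are near-identical copies between which counting may split reads. *Hbb-bs* (edgeR adjusted p 0.142) was not called without DMSO 1 h replicate 2. Its call was also lost with DESeq2, with limma, with all autosomal genes tested and with all 30 libraries sharing the spread.

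Heterochronic genes, which mark early developmental age and block maturation of let-7 microRNAs or act downstream of them, fell in 3 of 10 cases. All 10 had a negative log2 fold change, with a median of -0.12. *Lin28a* lay at 18.6, 19 and 19.7 CPM at 1 h and 12.8, 11 and 9.15 CPM at 6 h and fell with -0.80 ± 0.11 (SE, edgeR adjusted p 0.00142). *Lin28b* lay at 87.1, 92.2 and 94.9 CPM at 1 h and 62.6, 62.4 and 56.9 CPM at 6 h and fell with -0.60 ± 0.06 (SE, edgeR adjusted p 0.000146). Neither overlapped between the times. *Hmga1*, a chromatin protein of early embryos, fell with -0.39 ± 0.07 (SE, edgeR adjusted p 0.00626), while *Hmga2* did not pass (-0.09 ± 0.05). Reads of *Hmga1* may be split with its copy *Hmga1b*, which rose, so this fall is uncertain. *Igdcc3*, an immunoglobulin family membrane protein with one of the 5 smallest p-values, lay at 605, 572 and 606 CPM at 1 h and 346, 324 and 284 CPM at 6 h and fell with -0.91 ± 0.06 (SE, edgeR adjusted p 7.02e-06). Its relative *Prtg*, chosen after its values were seen, fell by 0.67 on the log2 scale (edgeR adjusted p 0.00154).

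A pair of transcripts that host microRNAs also fell. *Mir17hg*, which carries the miR-17 to miR-92 cluster on chromosome 14, lay at 25.5, 28.7 and 21.9 CPM at 1 h and 13.7, 9.65 and 12.2 CPM at 6 h and fell with -1.09 ± 0.13 (SE, edgeR adjusted p 0.000796). *Dnm3os* on chromosome 1, the host of miR-199a and miR-214, lay at 66.1, 96.8 and 64.2 CPM at 1 h and 50.02, 48.6 and 52.3 CPM at 6 h and fell with -0.59 ± 0.13 (SE, edgeR adjusted p 0.0268). These hosts were chosen after their values were seen. Leaving out 1 library was not tried for them or for other genes that are not protein coding. Mature microRNAs were not measured, since the libraries hold polyA RNA. Their sequences, from RefSeq (GRCm38.p6), are shown because the host encodes several miRNAs that share a seed. Capitals mark the seed, bases 2 to 8. In the *Mir17hg* group miR-17-5p and miR-20a-5p share 1 seed and miR-19a-3p and miR-19b-3p another:
miR-17-5p: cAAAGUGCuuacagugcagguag
miR-20a-5p: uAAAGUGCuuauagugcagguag
miR-18a-5p: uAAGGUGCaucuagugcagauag
miR-19a-3p: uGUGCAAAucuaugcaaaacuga
miR-19b-3p: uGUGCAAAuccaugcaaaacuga
miR-92a-3p: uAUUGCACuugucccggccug
Those within *Dnm3os* have seeds of their own:
miR-199a-5p: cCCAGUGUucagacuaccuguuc
miR-214-3p: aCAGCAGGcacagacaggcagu
Of 1822 genes tested that are not protein coding, 91 (4.99%) differed, 39 higher and 52 lower, and 57 (3.13%) were beyond 2-fold. Pseudogenes made up 47 of the 91 and 40 of the 57. The maternally expressed long RNA *Meg3* lay at 149, 169 and 111 CPM at 1 h and 93.1, 97.4 and 93.2 CPM at 6 h and fell with -0.60 ± 0.12 (SE, edgeR adjusted p 0.0157), and *Mirg*, from the same imprinted cluster, fell with -0.55 ± 0.12 (SE, edgeR adjusted p 0.021). *Emx2os*, antisense to *Emx2*, rose with 1.05 ± 0.14 (SE, edgeR adjusted p 0.00124).

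Small decreases were called in some genes of DNA replication and glycolysis, and most of these calls rested on all 6 libraries. Of 26 DNA replication genes 5 fell, none rose, and 25 had a negative log2 fold change, with a median of -0.13. The licensing factor *Cdt1*, the helicase subunits *Mcm6* and *Mcm7*, *Mcm10* and the reductase *Rrm2* lay between -0.26 and -0.17. Of 24 mitosis genes *Kif20a* (-0.20 ± 0.05) and *Ccnb1* (-0.22 ± 0.05) fell (8.33%, against 5.67% of all genes tested), and the median was -0.07. Among 11 G1 cyclins, Myc genes and CDK inhibitors 3 rose and 1 fell. *Ccnd2*, a G1 cyclin, and the inhibitors *Cdkn1a* and *Cdkn1c* rose by 0.29 ± 0.06, 0.41 ± 0.10 and 0.37 ± 0.07, and *Mycn*, the Myc gene of limb mesenchyme, fell by 0.19 on the log2 scale (edgeR adjusted p 0.0426). Of 20 ribosome biogenesis genes 1 (5%) fell, *Nolc1* (-0.21 ± 0.05), and 18 were negative. Of 24 genes of hypoxia and glycolysis 7 fell and 1 rose. *Ldha* lay at 1313, 1135 and 1116 CPM at 1 h and 1062, 915 and 1005 CPM at 6 h (-0.26 ± 0.06 (SE, edgeR adjusted p 0.0334)), and *Pkm*, *Eno1*, *Pfkl*, *Gpi1*, *Pgam1* and *Pdk1* fell by between 0.19 and 0.28 on the log2 scale. *Egln3*, a hypoxia target, rose with 0.80 ± 0.15 (SE, edgeR adjusted p 0.0105). Among the cholesterol synthesis genes *Insig1* fell (-0.36 ± 0.07 (SE, edgeR adjusted p 0.00747)). Of 11 genes of the imprinted growth network *Igf1* rose (0.40 ± 0.09) and *Mest* fell (-0.18 ± 0.04). The 5 replication genes that fell became 1 without DMSO 1 h replicate 1 or 3 or DMSO 6 h replicate 2 and 0 without DMSO 1 h replicate 2 or DMSO 6 h replicate 3. The 7 glycolysis genes that fell became 1 with the Y-linked covariate, 0 with all 30 libraries sharing the spread and 1 in limma, and 2 without DMSO 1 h replicate 1, 1 without DMSO 1 h replicate 2 and 0 without DMSO 6 h replicate 3. *Mcm6* (edgeR adjusted p 0.111), *Ldha* (0.117) and *Pgam1* (0.159) were not called without DMSO 1 h replicate 1, nor were *Cdt1* (0.0977), *Pkm* (0.0832), *Eno1* (0.0863), *Gpi1* (0.0903), *Igf1* (0.116) and *Mest* (0.099) without DMSO 1 h replicate 2, nor were *Mcm7* (0.129), *Mcm10* (0.117), *Rrm2* (0.148), *Kif20a* (0.117), *Ccnb1* (0.088), *Ccnd2* (0.0588), *Cdkn1a* (0.14), *Cdkn1c* (0.0721), *Mycn* (0.161), *Nolc1* (0.14), *Pfkl* (0.0675), *Pdk1* (0.08) and *Egln3* (0.0577) without DMSO 6 h replicate 3.

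Lists that could follow the injection, the handling or the hour of the day passed in between 0% and 30% of their tested members, against 5.67% of all genes, and their part in the other results was not tested. Of 23 immediate early genes 3 rose and none fell, with a median of 0.11. *Jun*, part of the AP-1 factor, lay at 48.3, 48.7 and 45.8 CPM at 1 h and 64.9, 59 and 59.4 CPM at 6 h and rose with 0.36 ± 0.06 (SE, edgeR adjusted p 0.00433), and *Fosl2* and *Gadd45g* rose by 0.57 ± 0.14 and 0.72 ± 0.14. *Fos*, with 1.43, 0.603 and 0.653 CPM at 1 h and 0.857, 0.896 and 1.25 CPM at 6 h, and *Egr1*, at -0.43 ± 0.20, did not pass. Of 18 clock genes *Cry2*, a repressor of the clock, fell from 33.1 to 24.4 CPM (-0.44 ± 0.07 (SE, edgeR adjusted p 0.00345)), and *Per2* did not pass (-0.12 ± 0.18). Of 12 genes of the glucocorticoid response 3 rose, *Ddit4* (0.38 ± 0.06 (SE, edgeR adjusted p 0.00221)), *Klf9* (0.72 ± 0.18 (SE, edgeR adjusted p 0.0343)) and *Cdkn1a*, which is 25% of the list. Of 14 heat shock genes the co-chaperone *Dnajb1* rose (0.33 ± 0.05) and the mitochondrial *Hspd1* fell (-0.22 ± 0.05), and the inducible *Hspa1a* was too low to test. Of 13 genes of ER chaperones *Xbp1* and *Herpud1* rose by 0.35 ± 0.05 and 0.38 ± 0.08. Of 17 genes of the ATF4 response 1 rose, *Slc7a11* (0.45 ± 0.11). Of 10 p53 targets 3 rose, *Cdkn1a*, *Trp53inp1* (0.38 ± 0.08) and *Pmaip1*, and *Pmaip1* lay at 74.8, 71.5 and 79.6 CPM at 1 h and 117, 117 and 110.0 CPM at 6 h (0.60 ± 0.05 (SE, edgeR adjusted p 6.54e-05)). None of 5 interferon genes passed in edgeR, DESeq2 or limma, and the number at an unadjusted p below 0.05 was 0. *Fosl2* (edgeR adjusted p 0.117) and *Slc7a11* (0.124) were not called without DMSO 1 h replicate 1, nor were *Gadd45g* (0.0582) and *Klf9* (0.128) without DMSO 1 h replicate 2, nor were *Cdkn1a* (0.14), *Hspd1* (0.0683), *Herpud1* (0.0696) and *Trp53inp1* (0.08) without DMSO 6 h replicate 3.

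Promoters from RefSeq (GRCm38.p6) were searched on both strands, over the 250 bases before each start, for motifs of factors behind these lists. The cAMP response element TGACGTCA lay in 2 of 25 promoters of immediate early genes (8%), against 1.55% of all 32851 promoters. The E-box CACGTG lay in 6 of 23 clock promoters (26.1%), in 5 of 25 of the immediate early genes (20%) and in 2 of 17 of the heat shock genes (11.8%), against 6.02% of all. The heat shock motif GAANNTTC lay in 6 of 17 heat shock promoters (35.3%), against 6.69%, and TTCNNGAA in 4 of 17 (23.5%), against 7.17%. Among immediate early promoters GAANNTTC lay in 2 of 25 (8%), those of *Jun* and *Fosl2*, which is near the 6.69% of all promoters.

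**Figure D3:**
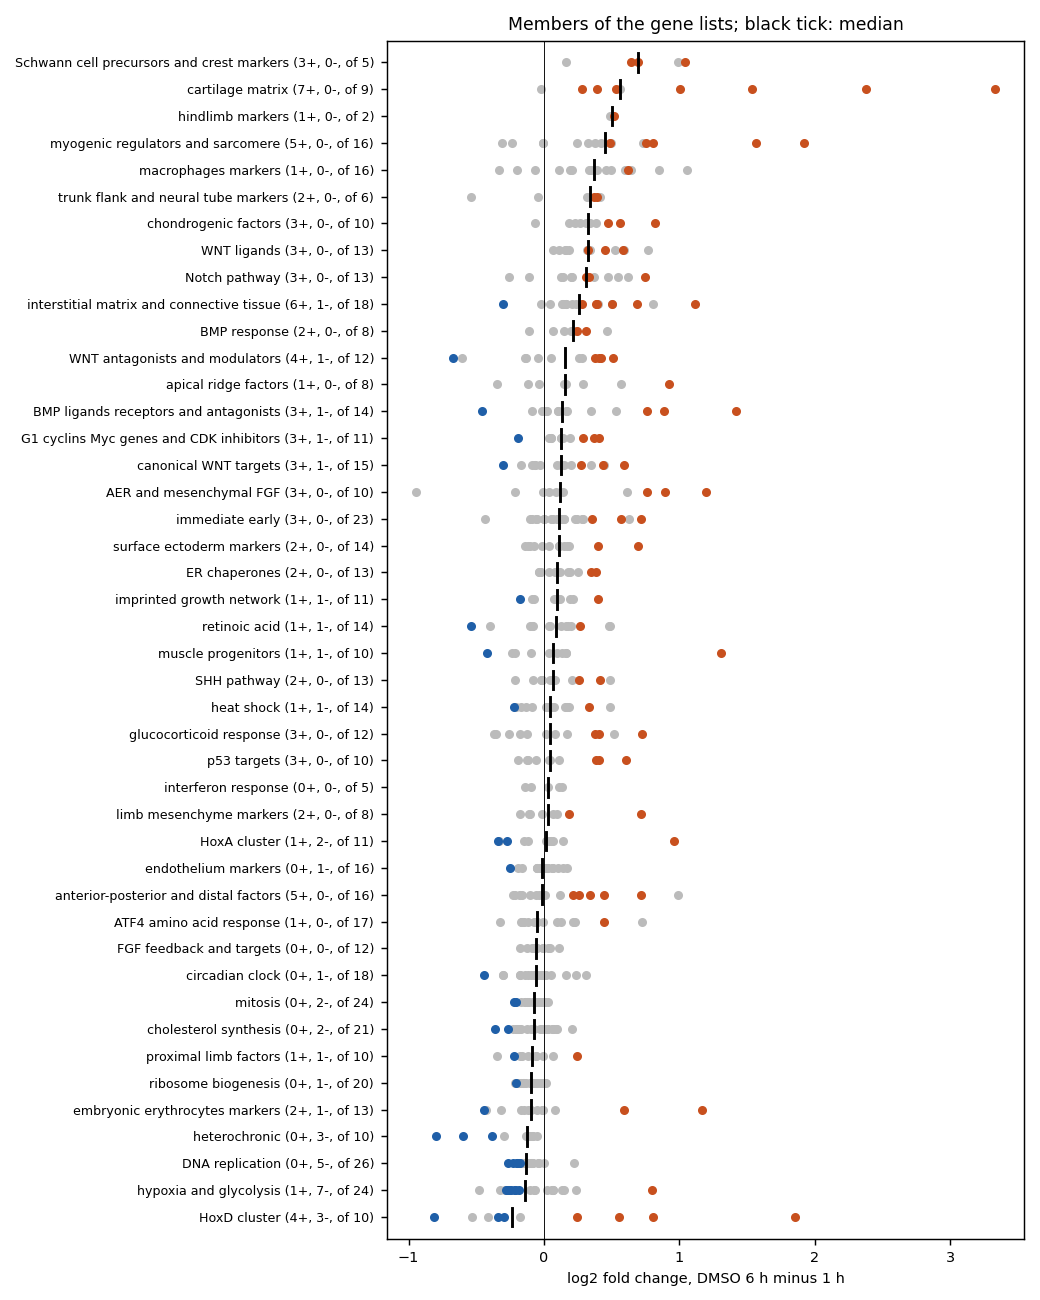
Log2 fold change (DMSO 6 h minus 1 h) of every tested member of each gene list and marker list, ordered by the median (black tick). Orange points rose and blue points fell at an adjusted p below 0.05, grey points did not pass, and the numbers in each name count them. Schwann cell precursor markers and cartilage matrix lie at the top, and the HoxD cluster, with members far to both sides, at the bottom.

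The largest changes were in genes outside the lists. *Nr1h5*, a nuclear receptor gene on chromosome 3, had no count in any DMSO 1 h library and 1064 counts over the 3 at 6 h, which made it at least 420-fold higher against a floor of 3 counts over the group. *Rp1l1*, a photoreceptor gene, had 1 count at 1 h and 479 at 6 h, a ratio of 567 (95% counting interval 101 to 22452). *Tbx19*, a T-box factor of the pituitary, had 0 and 128 counts, at least 50.5-fold higher. *Abhd12b* lay at 0.0434, 0.0464 and 0.103 CPM at 1 h and 2.41, 2.04 and 5.97 CPM at 6 h and *Tpm3-rs7* at 3, 2.83 and 3.44 CPM at 1 h and 243, 221 and 185 CPM at 6 h. Levels in the other groups did not follow the time, and some differed between libraries of 1 group. *Nr1h5* lay between 20.2 and 30.8 CPM in C59 1 h, at 0 in every C59 6 h and DMSO 12 h library, and at 0, 9.67 and 0 CPM in DMSO 18 h. *Tpm3-rs7* lay at 65.1, 252 and 125 CPM in DMSO 12 h and at 2.99, 2.82 and 55.4 CPM in DMSO 24 h. *Rp1l1* had no count in C59 1 h, C59 6 h or DMSO 12 h. *Tmc6*, a membrane channel-like protein, lay at 21.9, 23.1 and 22.3 CPM at 1 h and 55.6, 54.3 and 55.5 CPM at 6 h (1.29 ± 0.06 (SE, edgeR adjusted p 2.2e-07)) and at 20.03 ± 1.23 CPM (SD, n = 3) in DMSO 12 h. Which libraries share a litter is not given in the sources used here, and its part in these values was not tested.

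Several of them have near-identical copies elsewhere. *Tpm3-rs7*, counted as protein coding, is listed by RefSeq as a pseudogene, and while it rose by 6.11 ± 0.12 the parent gene *Tpm3*, a tropomyosin, fell, at 564, 524 and 538 CPM at 1 h and 294, 267 and 312 CPM at 6 h (-0.90 ± 0.06 (SE, edgeR adjusted p 3.27e-06)). *Rpl26*, a ribosomal protein, lay at 26.5, 35.2 and 38.2 CPM at 1 h and 144, 126 and 237 CPM at 6 h (2.33 ± 0.20 (SE, edgeR adjusted p 5.31e-05)) and was back at 32.2 ± 2.29 CPM (SD, n = 3) at 12 h. *Rpsa*, with -0.64 ± 0.06 (SE, edgeR adjusted p 0.00013), and *Rps2*, chosen after its values were seen, with -0.84 ± 0.12 (SE, edgeR adjusted p 0.00145), fell, and ribosomal protein genes have many processed copies. *Hmga1b*, a copy of *Hmga1*, lay at 32, 34.8 and 3.13 CPM at 1 h and 132, 116 and 117 CPM at 6 h (2.41 ± 0.47 (SE, edgeR adjusted p 0.0108)). *Csnk2a3*, also named after its values were seen, lay at 3.26, 3.9 and 5.88 CPM at 1 h and 13.7, 12.4 and 17.9 CPM at 6 h. Counting may split reads between such copies, so these values are uncertain. *Cwc22*, a splicing factor, lay at 112, 112 and 111 CPM at 1 h and 67, 68.2 and 65.4 CPM at 6 h and fell with -0.75 ± 0.05 (SE, edgeR adjusted p 5.28e-06). The 10th increase by size, *AI467606*, rose by 2.02 ± 0.36.

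The largest decrease was *Srp54a*, at 3.95, 7.42 and 5.54 CPM at 1 h and 1.35, 0.697 and 1.25 CPM at 6 h (-2.35 ± 0.29 (SE, edgeR adjusted p 0.000686)), which encodes a subunit of the signal recognition particle and has near-identical copies. *Hfm1*, a meiotic helicase, lay at 2.43, 1.99 and 1.13 CPM at 1 h and 0.449, 0.547 and 0.227 CPM at 6 h (-2.13 ± 0.40 (SE, edgeR adjusted p 0.00949)). The myosin heavy chains *Myh7b* and *Myh15* fell with -1.56 ± 0.26 (SE, edgeR adjusted p 0.00457) and -1.34 ± 0.33 (SE, edgeR adjusted p 0.0351). The others of the 10 largest decreases were *A630089N07Rik* (-1.41 ± 0.20), *Hsd3b6* (-1.34 ± 0.21), *Acsl6* (-1.29 ± 0.33), *Cr2* (-1.23 ± 0.30), *Gpat2* (-1.21 ± 0.31) and *Psd2* (-1.12 ± 0.17). *Myh15* (edgeR adjusted p 0.135) was not called without DMSO 1 h replicate 1, nor was *Cr2* (0.0977) without DMSO 1 h replicate 2, nor were *Hfm1* (0.0504), *Acsl6* (0.128) and *Gpat2* (0.15) without DMSO 6 h replicate 3.

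**Figure D4:**
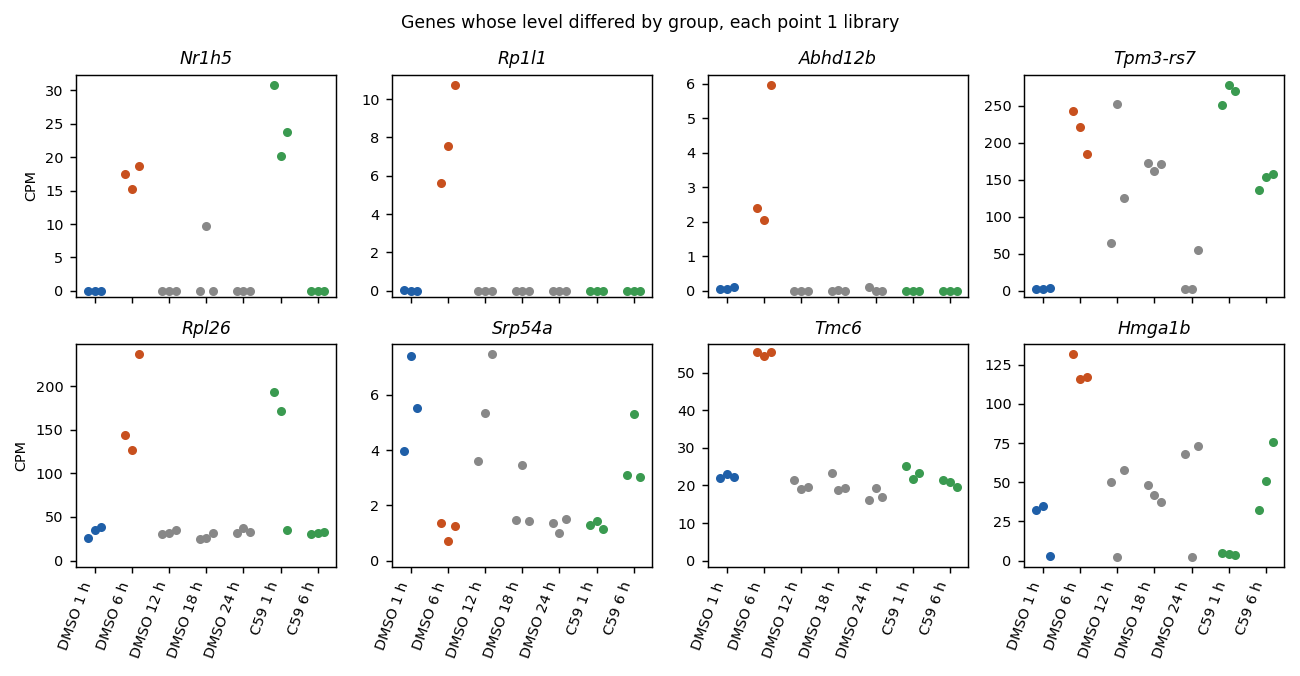
CPM of 8 genes in each library of the 5 DMSO groups and of C59 1 h and C59 6 h, each point 1 library. *Nr1h5* is at 0 in DMSO 1 h, between 15.2 and 18.7 CPM in DMSO 6 h, present in C59 1 h, and at 0, 9.67 and 0 CPM in DMSO 18 h.

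The next interval, from 6 h to 12 h, was set beside the first. From 6 h to 12 h 387 of 13033 genes (2.97%) differed, and 46 of 13271 (0.347%) changed by a different amount than from 1 h to 6 h, 21 (0.158%) with a larger and 25 (0.188%) with a smaller later value. Both intervals share the 6 h libraries, so a chance deviation there moves them in opposite directions. The count of 46 was 30 genes without DMSO 1 h replicate 2, and 22, 30 and 25 without DMSO 6 h replicates 1, 2 and 3. *Evx2* changed by 1.85 ± 0.18 from 1 h to 6 h and by 1.22 ± 0.16 from 6 h to 12 h. *Hoxd13* changed by 0.80 ± 0.06 and 0.52 ± 0.06, *Matn4* by 3.33 ± 0.29 and 1.79 ± 0.17, and *Lin28a* by -0.80 ± 0.11 and -1.20 ± 0.15. For *Myod1*, with 1.92 ± 0.13 and 0.92 ± 0.11, the difference of the intervals was -1.01 ± 0.21 (SE, edgeR adjusted p 0.0623). *Dkk1* was different, since it rose by 0.43 ± 0.10 and then changed by -0.63 ± 0.10, and the difference of -1.07 ± 0.17 (SE, edgeR adjusted p 0.0147) passed. *Tmc6*, *Rpsa* and *Cwc22* also passed, at -2.75 ± 0.11, 0.98 ± 0.11 and 0.68 ± 0.08.

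Levels later in the DMSO course are given as mean ± SD of 3 libraries. *Myod1* reached 25.2 ± 3.46 CPM at 12 h and 67.3 ± 7.91 CPM at 24 h, and *Matn4* 19.3 ± 3.29 and 104 ± 8.8 CPM. *Igdcc3* came down to 25.7 ± 3.13 CPM and *Lin28a* to 1.33 ± 0.267 CPM at 24 h. *Pax3* reached 5.23 ± 0.567 CPM and *Pax7* 13.1 ± 0.379 CPM. The ridge gene *Fgf8* and the posterior gene *Shh*, which did not pass between 1 h and 6 h, were low at 24 h, with *Fgf8* at 6.94 ± 0.62 CPM and *Shh* at 0.861 ± 0.442 CPM. *Axin2* stood at 107 ± 4.46 CPM at 24 h.

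**Figure D5:**
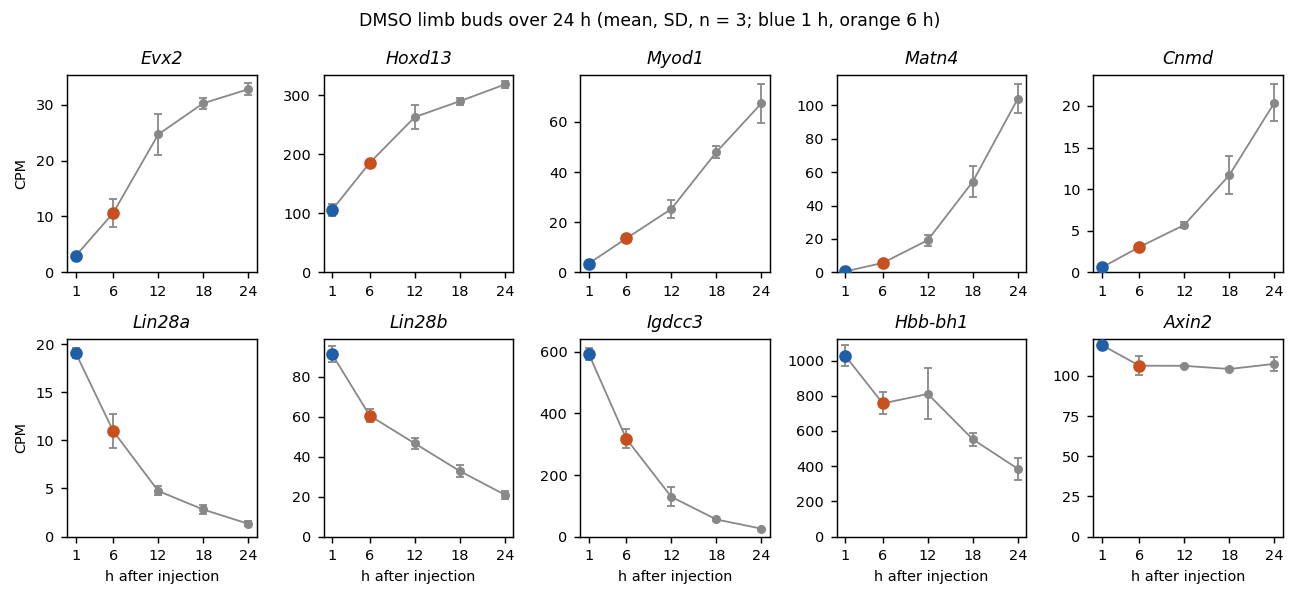
Mean CPM (bars SD, n = 3) of 10 genes in the DMSO libraries against h after injection, with the 1 h group in blue and the 6 h group in orange. *Evx2*, *Hoxd13*, *Myod1*, *Matn4* and *Cnmd* go up at every step, *Lin28a*, *Lin28b* and *Igdcc3* go down at every step, and *Axin2* stays near its 6 h level.

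The same 5 h in embryos given C59 gives the comparison with WNT secretion blocked. The change from 1 h to 6 h differed between DMSO and C59 in 1736 of 13397 genes (13%), with 1025 (7.65%) where DMSO lay above C59 and 711 (5.31%) below, and 179 of these were beyond 2-fold (1.34%). In C59 alone 6312 of 13106 genes (48.2%) differed between 6 h and 1 h. Of 10 HoxD genes 1 differed, with DMSO above C59, and of 11 HoxA genes DMSO lay above C59 for 2 and below for 1. *Hoxa13* rose by 0.96 in DMSO and 1.39 in C59. *Evx2* and *Hoxd13*, at the 5′ end of HoxD, were not among the genes that differed. *Evx2* rose by 1.85 ± 0.18 in DMSO and 2.07 ± 0.14 in C59, with a difference of -0.22 ± 0.24 (SE, edgeR adjusted p 0.623), and *Hoxd13* by 0.80 ± 0.06 and 0.97 ± 0.05, with a difference of -0.17 ± 0.09 (SE, edgeR adjusted p 0.245). *Matn4* rose by 3.33 ± 0.29 and 2.97 ± 0.31 (0.36 ± 0.51 (SE, edgeR adjusted p 0.708)). Misses of the threshold do not show equal changes.

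Other genes that rose in DMSO rose further in C59. *Myod1* changed by 1.92 ± 0.13 in DMSO and 3.40 ± 0.13 in C59, with a difference of -1.49 ± 0.21 (SE, edgeR adjusted p 0.000134). *Sox9* changed by 0.56 ± 0.08 and 1.48 ± 0.04, with -0.92 ± 0.10 (SE, edgeR adjusted p 1.27e-05), and *Gdf5* by 0.89 ± 0.20 and 2.61 ± 0.23, with -1.72 ± 0.29 (SE, edgeR adjusted p 0.00066). In the same way *Lin28a* and *Igdcc3* fell by more in C59, with differences of 1.06 ± 0.15 (SE, edgeR adjusted p 9.96e-05) and 0.76 ± 0.10 (SE, edgeR adjusted p 4.76e-05). *Axin2*, *Grem1*, *Shh*, *Fgf8* and *Sp5*, none of which passed in DMSO, also differed. *Axin2* changed by -0.17 ± 0.05 and -1.94 ± 0.05, *Grem1* by -0.09 ± 0.06 and -2.76 ± 0.07, *Shh* by 0.08 ± 0.10 and -1.07 ± 0.13, *Fgf8* by -0.21 ± 0.08 and -1.74 ± 0.08, and *Sp5* by -0.09 ± 0.14 and -4.80 ± 0.27 in DMSO and C59. The differences were 1.77 ± 0.08 (SE, edgeR adjusted p 9.13e-12), 2.67 ± 0.10 (SE, edgeR adjusted p 8.55e-13), 1.15 ± 0.14 (SE, edgeR adjusted p 4.07e-05), 1.53 ± 0.11 (SE, edgeR adjusted p 4.69e-08) and 4.71 ± 0.29 (SE, edgeR adjusted p 3.71e-09). *Nr1h5* and *Tpm3-rs7* differed by 23.72 and 6.97 on the log2 scale, and the fitted value of a gene at 0 is no bound.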

How the data were processed

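Paired-end polyA RNA-sequencing of forelimb buds gave the libraries compared. Per the labels and the methods, the authors used Cutadapt 1.16 for trimming, and STAR 2.7.0e with a custom annotation for alignment to mm10, and the deposited count table holds raw counts per autosomal gene without normalization. The strand of counting is not given in the sources used here. The deposited FPKM values were computed by the authors with cufflinks 2.2.1 as unstranded, without pooling of replicates, and served here for sex-linked genes and as an alternative.

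Genes were named with GENCODE M21. Protein-coding autosomal genes were tested with edgeR 4.0.16 in R 4.3.3 (two-sided quasi-likelihood test, TMM, filterByExpr with minimum counts of 10 and 15) on the 6 libraries without covariates, with Benjamini-Hochberg adjustment. Differences of changes were tested as interaction contrasts on 12 libraries (DMSO against C59) and 9 libraries (6 h to 12 h against 1 h to 6 h). The tests were tried on simulated counts. Alternatives used DESeq2 1.42.0, limma 3.58.1 on log2(FPKM + 1) and log2(FPKM + 0.1), other normalizations and filters, a replicate block, and each library left out.

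The members and gene lists were chosen with earlier results of these data known. Genes are named as the 10 largest changes in each direction beyond 2-fold without overlap and at 1 CPM or more, the 5 smallest p-values in each direction, genes the study followed in tissue, list members, the 5 largest differences of each interaction in each direction, and genes with no count in a group. A few genes that these rules name are not reported here. Intervals and floors cover counting error only, because PCR copies of a molecule cannot be recognised. Replicates differed beyond sampling noise, with a chi-square of 5.68 to 10.4 per degree of freedom. Per the methods on embryo collection, replicates drew on several litters, but libraries are not matched to litters. The p-values therefore measure the spread between libraries as sampled.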

Additional observations from a re-analysis of the deposited data

Results flagged for a closer look

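Genes whose change from 1 h to 6 h differed between DMSO and C59 were flagged, with the difference on the log2 scale, and each passed an interaction test in edgeR at an adjusted p below 0.05. Of the genes with the largest differences DMSO lay above C59 for *Nr1h5* (23.72), *Tpm3-rs7* (6.97), *Sp5* (4.71), *Rpl26* (4.43) and *Fgf4* (4.18), and below it for *Srp54a* (-3.88), *Padi4* (-3.39), *Slc37a2* (-2.37), *1110002E22Rik* (-2.20) and *Arpp21* (-2.06). Among genes followed in tissue the difference was 1.77 for *Axin2*, 1.15 for *Shh*, 2.67 for *Grem1*, 1.53 for *Fgf8*, 0.89 for *Bmp4*, -0.92 for *Sox9*, -0.35 for *Ptch1*, 0.60 for *Msx2*, 0.24 for *Dusp6*, 2.40 for *Wnt2* and 1.14 for *Wnt2b*. The fitted difference of *Nr1h5*, which has groups without a count, is no bound.

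Genes whose change from 6 h to 12 h differed from that from 1 h to 6 h in DMSO were flagged by the same kind of test. The later change was the larger for *Srp54a* (4.65), *Myh7b* (2.77), *A630089N07Rik* (2.44) and *Ulk4* (1.63), and the smaller for *Nr1h5* (-23.05), *Rp1l1* (-19.09), *Abhd12b* (-14.75), *Padi4* (-7.44) and *Tpm3-rs7* (-6.66). *Nr1h5*, *Rp1l1* and *Abhd12b* have groups at or near 0, so these fitted values are no bounds.

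Y-linked genes, outside the autosomal comparison, summed to 7.66 FPKM in DMSO 1 h replicate 1 and 9.03 FPKM in DMSO 1 h replicate 2, against 0 in the DMSO 6 h libraries. Their part in the autosomal results was not tested other than through the covariate.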

How the results depend on the processing

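The 92 genes beyond 2-fold became 140 (99 higher, 41 lower) with all autosomal genes of the table, 13 and 57 with limma on log2(FPKM + 1) and log2(FPKM + 0.1), 9 when tested against a 2-fold change, and 56 to 78 with 1 library left out. The 743 genes at any fold became 362 and 360 with limma, 332 and 336 of them among the 743, and 297 to 671 with 1 library left out. Both counts stayed within 1.5 times under DESeq2 (86 and 783), other normalizations and filters, and shared spread over 30 libraries (97 and 626), but 509 of those 626 were among the 743, and 505 of the 665 with the Y-linked covariate. The 1736 genes that differed between DMSO and C59 became 1030 and 1001 with limma and 1188 to 1965 with 1 library left out. The 46 genes that differed between the intervals became 137 with DESeq2, 86 without a filter, 83 with all autosomal genes, 16 and 20 with limma, and 22 to 47 with 1 library left out. The cause of these shifts was not tested, apart from the fewer or more genes and samples that some alternatives use.

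Replicate numbers did not pair the samples throughout: deviations of same-numbered libraries correlated at 0.20, -0.01 and -0.01. The value of 0.20 was that of the replicate 1 libraries, which also had the larger share of protein-coding counts. Whether these libraries have more in common was not tested. With the replicate block the counts were 83, 717, 1571 and 40, and not every sample correlated best with its own number. Of 168 named or listed genes that passed, 91 kept their call on leaving out any 1 library, 164 with DESeq2, 163 with the block, 122 with all 30 libraries sharing the spread, 129 with the Y-linked covariate, and 112 and 109 with limma. Those that lost their call with the covariate included *Hoxd11*, *Hoxd9*, *Hoxa9*, *Hand2*, *Sall1*, *Shox2*, *Tbx5*, *Tbx4*, *Tbx18*, *Sox6*, *Col11a1*, *Id1*, *Sost*, *Dkk1*, *Rspo3*, *Notch1*, *Hey1*, *Ednrb*, *Eng*, *Hbb-bh1*, *Hbb-bs*, *Cdkn1c*, *Igf1*, *Mest*, *Mcm7*, *Ldha*, *Pkm*, *Gpi1*, *Pfkl*, *Pgam1*, *Pdk1*, *Slc7a11*, *Trp53inp1* and *Gpat2*. None changed direction. Depth limits the genes under 1 CPM, such as *Mymk*.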
